A study of Mus musculus with 12 samples.

Results

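The AP-1 and stress-induced transcription factors described here are 10 genes, Fos, Fosb, Fosl1, Fosl2, Jun, Junb, Jund, Atf3, Maff and Egr1. They were chosen by name, and each was found as 1 of the 48709 genes of the expression tables. RNA had been sequenced from brain cells of 6 mice, dissociated from each hemisphere and selected for ACSA-2, a surface antigen of astrocytes, with all libraries labelled as 24 h of transient middle cerebral artery occlusion (tMCAO). In this stroke model the artery that supplies much of 1 hemisphere is blocked and then reopened. All mice were of strain C57BL/6, were 90 to 120 days old and carried Gfap-CreERT2+/- together with Nhe1 f/f, that is, a tamoxifen-activated Cre made in cells in which the Gfap promoter is active, and floxed alleles of the sodium-proton exchanger Nhe1. The mice labelled Nhe1 Astro-KO (KO; mice 295, 298 and 300) received tamoxifen, and the mice labelled wild-type (WT; mice 296, 297 and 474) received corn oil, so that the drug and the deletion cannot be told apart. How far Nhe1 was deleted is not reported here. Each mouse gave a library from the ipsilateral side (the occluded hemisphere) and 1 from the contralateral side, which makes 4 groups of 3 libraries: KO ipsilateral, KO contralateral, WT ipsilateral and WT contralateral. No mouse without an occlusion was analysed here, and the cells were dissociated before RNA was taken, a step known to induce immediate early genes in brain cells.

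Fos, Fosb, Fosl1 (Fra-1) and Fosl2 (Fra-2) are basic leucine zipper proteins that bind DNA as dimers, typically with a Jun protein (Jun, Junb or Jund), and such a dimer is the transcription factor AP-1. Fos, Fosb, Jun, Junb, Atf3 and Egr1 are immediate early genes, transcribed within minutes of a stimulus by factors already in the cell, among them serum response factor with its Elk partners, and CREB. Fosl1 and Fosl2 typically follow later and are themselves known targets of AP-1. Atf3 is a stress-induced zipper protein that often represses, Maff is a small Maf protein with no activation domain of its own, and Egr1 is a zinc finger factor. In brain, these genes are known as markers of neuronal activity and of injury, and reactive astrocytes express them too.

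The start regions of 3 members are shown, since these genes stood for the patterns described below: Fos and Jun were high in every library, and Maff differed between the sides in most mice. Each sequence is the 250 bases before the annotated start, from RefSeq on GRCm38.p6, written 5′ to 3′ along the gene's strand. Capitals mark an EGR site (GCGNGGGCG) or a TGACNTCA site, of which the cyclic AMP response element TGACGTCA is 1 form, searched on both strands.
Maff, chr15:79347270-79347519, plus strand: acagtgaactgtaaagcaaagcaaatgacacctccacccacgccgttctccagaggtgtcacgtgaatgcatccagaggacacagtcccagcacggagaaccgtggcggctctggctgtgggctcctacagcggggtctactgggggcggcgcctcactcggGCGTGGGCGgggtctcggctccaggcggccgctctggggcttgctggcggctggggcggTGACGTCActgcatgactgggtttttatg
Jun, chr4:95052223-95052472, minus strand: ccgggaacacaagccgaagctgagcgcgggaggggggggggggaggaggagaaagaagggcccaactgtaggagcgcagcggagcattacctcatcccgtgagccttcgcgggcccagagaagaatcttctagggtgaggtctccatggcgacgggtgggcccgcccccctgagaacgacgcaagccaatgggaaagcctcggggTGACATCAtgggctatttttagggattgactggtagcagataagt
Fos, chr12:85473640-85473889, plus strand: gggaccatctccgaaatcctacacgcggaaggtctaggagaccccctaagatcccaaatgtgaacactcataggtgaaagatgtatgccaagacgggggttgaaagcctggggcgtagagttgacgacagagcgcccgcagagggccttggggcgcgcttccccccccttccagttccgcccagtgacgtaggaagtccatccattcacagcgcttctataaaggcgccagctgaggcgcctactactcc
In the Maff window, which belongs to 1 of its 3 RefSeq starts, the EGR site lay at -88 to -80 and the TGACGTCA at -29 to -22 from the start. In the Jun window the TGACNTCA match, with A in place of N, lay at -45 to -38. The Fos window held neither motif, and a TATAAA at -33 to -28. Entries of 8 members were used, and Egr1 and Fosl1 are not among them. The Jund window ended at 70697738, upstream of the gene start at 70698949 in the annotation used for gene positions. Among them the TGACNTCA site was found before Jun and before 2 of the Maff starts, and the EGR site before Fosl2 (-79 to -71), Fosb (-50 to -42) and Maff. Of 32851 mouse promoters of the same length, 7.49% held TGACNTCA, 1.55% TGACGTCA and 4.7% the EGR site. The AP-1 site TGANTCA (6.75% of promoters) and the CArG box of serum response factor (1.47%) were not in the windows of these 8 members. Bases beyond the 250 were not searched, so sites further away may have been missed. These matches are descriptions of letters, and no binding was measured.

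The libraries held 11187723 to 15780600 counts. All 8 astrocyte markers were detected in every group, their summed level being 8212 to 11376 TPM (transcripts scaled for gene length, on 1 common total per library) in KO ipsilateral, 9915 to 11442 in KO contralateral, 4578 to 6299.7 in WT ipsilateral and 6242 to 8163 in WT contralateral libraries. Oligodendrocyte markers, 8 of 8 detected, summed to 6507 to 10239, 3810 to 5684, 10307 to 15948 and 10861 to 12544 TPM in the same order of groups, so the selected cells were not astrocytes alone. Mouse 296 stood apart from the other 5, with 4 and 8 counts of Xist and 2917 and 2733 counts of Y-linked genes in its ipsilateral and contralateral libraries. The libraries of the other mice had at least 9140 counts of Xist and at most 8 of Y-linked genes. By these transcripts mouse 296, a WT mouse, was male and the others, all KO mice among them, were female. Sex is not in the labels used here, and its part in the results was not tested. Mouse 296 also had the highest summed neutrophil markers, 550.1 TPM ipsilaterally and 222 contralaterally, against 37.7 to 125 and 14.9 to 103 TPM in the other mice.

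Together the 10 members took 0.299 to 0.372% of all TPM in KO ipsilateral, 0.334 to 0.392% in KO contralateral, 0.391 to 0.528% in WT ipsilateral and 0.307 to 0.56% in WT contralateral libraries. Fos was the highest of them in every group, at 756 to 2001 TPM, between the 36th and the 148th highest of all genes in a library. Jun, Junb and Jund followed with medians over the 12 libraries of 543, 491 and 520.5 TPM, and their ranges overlapped (444 to 674, 342 to 714 and 423 to 841 TPM). Next came Egr1 (205 to 563 TPM), Atf3 (207 to 404 TPM) and Fosb (98.5 to 431 TPM), which also overlapped with each other. Maff (15.1 to 98.3 TPM), Fosl2 (9.96 to 60.5 TPM) and Fosl1 (0 to 107 TPM) were the lowest, and these were the members with a large spread between the sides of the brain.

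**Figure D1:**
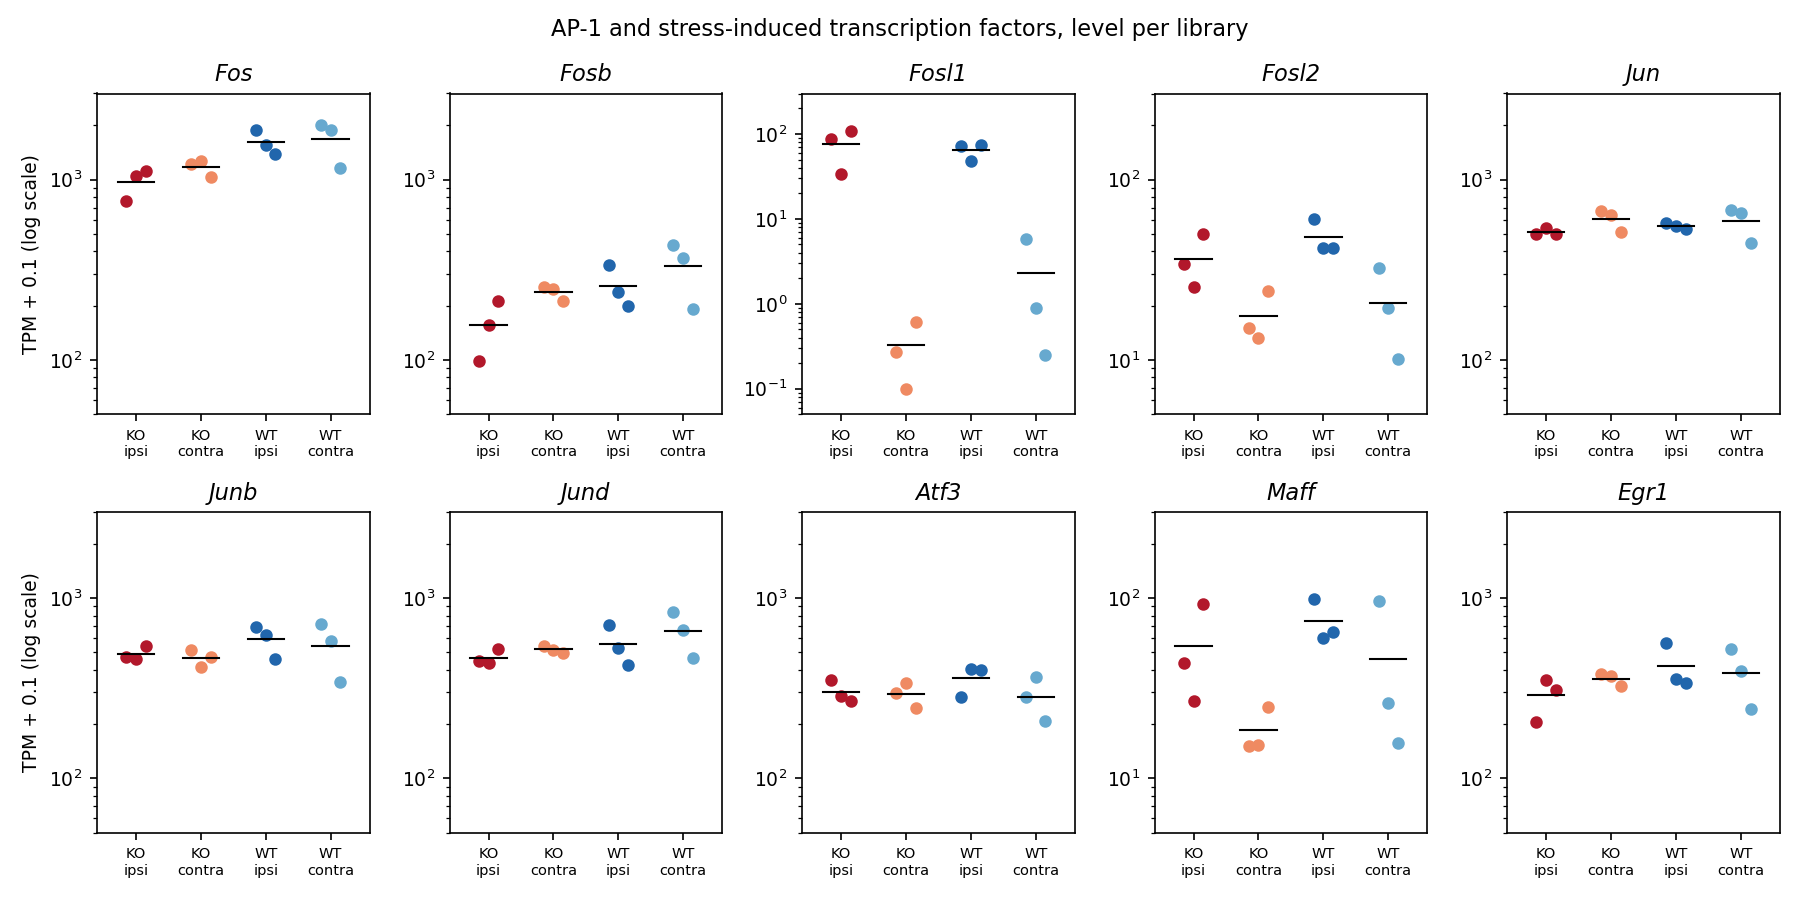
Level of each of the 10 genes per library, as TPM + 0.1 on a log axis whose range differs for Fosl1, Fosl2 and Maff. Each point is 1 library and each line the mean of 3, in the order KO ipsilateral, KO contralateral, WT ipsilateral and WT contralateral. Fosl1 lies at 33.4 to 107 TPM ipsilaterally and at 0 to 5.65 TPM contralaterally, whereas Fos, the Jun genes, Atf3 and Egr1 are high in all groups.

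Which of these genes responded to the occlusion was asked by setting the ipsilateral against the contralateral side. Of the 10 members, Fosl1 and Fosl2 rose and none fell when the genotypes were averaged. Maff was 2.33-fold higher but did not pass the test, and the other 7 members, the immediate early genes among them, showed small differences. The test was edgeR's quasi-likelihood test, fitted on all 12 libraries and 15571 genes and called at a Benjamini-Hochberg adjusted p of 0.05. In the averaged contrast 17.1% of all genes tested rose and 33.2% changed in either direction, so 2 of 10 is near the background. Within KO mice 1 member rose (5.45% of all genes), and within WT mice 1 member rose (9.61% of all genes). The median log2 fold change of the 10 members was 0.07 in the averaged contrast, against -0.03 over all genes tested. Since RNA was taken from bulk cells, a gene expressed by more cells and a gene with more RNA per cell cannot be told apart. Neutrophil markers (8 listed) were higher ipsilaterally in 6 of 6 mice in summed TPM, at 51.2 to 125 against 23.3 to 103 in KO mice, whose Ly6g was at 0, and at 37.7 to 550.1 against 14.9 to 222 in WT mice. Monocyte and macrophage markers (8 of 8 detected) summed to 244 to 504 against 154 to 503 TPM in KO and 107 to 291 against 91.2 to 104 TPM in WT mice, and microglia markers (8 of 8) to 233 to 1983 against 817 to 1248 TPM in KO and 695 to 1168 against 445 to 508 TPM in WT mice. Neuron markers (8 of 8) were higher ipsilaterally in 6 of 6 mice in summed TPM. The sums were 119 to 151 against 66.3 to 68.4 TPM in KO and 259.7 to 518 against 183 to 448 TPM in WT mice. By gene, 0 of 8 passed within either genotype. Their median log2 fold change was 0.5 in KO but -0.51 in WT mice, so the sums do not describe each gene. Pericyte and smooth muscle markers (8 of 8) were lower ipsilaterally in 6 of 6 mice, at 1009 to 1567 against 1335 to 1673 TPM in KO and 686 to 1000.4 against 1215 to 1377 TPM in WT mice. The part of these cells in the results below was not tested.

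Fosl1, on chromosome 19 at 5447547 to 5455946 (mm10), encodes Fra-1, a Fos protein that lacks the activation domain of Fos. It stood at 87.0, 33.4 and 107 TPM ipsilaterally in KO mice 295, 298 and 300, against 0.168, 0 and 0.513 TPM contralaterally. In WT mice 296, 297 and 474 it stood at 73.1, 48.0 and 74.9 TPM ipsilaterally, against 5.65, 0.783 and 0.149 TPM contralaterally. All 6 ipsilateral libraries lay above all 6 contralateral ones, a pattern that 5.84% of the genes tested showed in this direction, and the highest contralateral value came from mouse 296. In counts, Fosl1 had 599, 245 and 702 reads ipsilaterally and 1, 0 and 4 contralaterally in KO mice. The WT libraries held 483, 317 and 525 reads ipsilaterally and 35, 5 and 1 contralaterally. The contralateral level in KO mice thus rests on 5 reads in all. The ratio of summed counts, corrected for library size, was 331 in KO mice (95% interval 142 to 1021, counting error only) and 31.0 in WT mice (22.7 to 43.3).

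In edgeR's test the log2 fold change of Fosl1 was 8.38 ± 1.02 (SE; adjusted p = 0.00312) in KO mice, 4.85 ± 0.78 (adjusted p = 0.00252) in WT mice and 6.62 ± 0.65 (adjusted p = 0.000136) with the genotypes averaged, and it was higher ipsilaterally in 6 of 6 mice. Without mouse 295 the KO difference was 8.19 with an adjusted p of 0.0712. The call in KO mice was thus lost in that fit, while the size of the difference changed little. It held in 28 of 29 alternative settings, those without mouse 298 or without mouse 300 among them. In WT mice the difference was 6.97 without mouse 296. The side difference was 3.52 ± 1.44 log2 units larger in KO than in WT mice (edgeR interaction, unadjusted p = 0.0314, adjusted p = 0.948), which did not pass, and it was 1.42 without mouse 296. Ccdc85b, which overlaps exons of Fosl1 on the opposite strand, held 81 to 176 counts ipsilaterally and 105 to 167 contralaterally, and whether reads were counted by strand is not given in the sources used here.

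Fosl2, on chromosome 5 at 32135801 to 32157842, encodes Fra-2, the close relative of Fra-1. Its levels were 34.0, 25.3 and 49.6 TPM ipsilaterally in KO mice 295, 298 and 300, against 14.9, 13.1 and 24.1 TPM contralaterally. For WT mice 296, 297 and 474 they were 60.5, 41.6 and 41.5 TPM ipsilaterally, against 32.3, 19.3 and 9.96 TPM contralaterally. Within each genotype the sides did not overlap, which held in either direction for 38.8% of genes in KO and 34.0% in WT mice. Fosl2 was 1.81-fold to 3.72-fold higher ipsilaterally in 6 of 6 mice on normalised CPM, and 19.0% of genes were higher in all mice. Averaged over genotypes it rose by 1.23 ± 0.29 log2 units (adjusted p = 0.0086, edgeR).

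Within KO mice the Fosl2 difference was 1.27 ± 0.42 (adjusted p = 0.0865) and within WT mice 1.18 ± 0.41 (adjusted p = 0.0659), neither past the threshold. Both sides came from the same animal, and with the mouse as a block both passed (KO 1.24, adjusted p = 0.00849; WT 1.3, adjusted p = 0.00196). Without mouse 296 both passed too, in KO at 1.28 (adjusted p = 0.0398) and in WT at 1.49 (adjusted p = 0.033). With only its ipsilateral library left out, neither passed (KO 1.28, adjusted p = 0.0815, and WT 0.99, adjusted p = 0.148). Of 29 alternative settings, 5 called Fosl2 in KO and 10 in WT mice, while 28 of 28 called it in the average. The difference between genotypes in the Fosl2 response was 0.09 log2 units, with a 95% interval of -1.17 to 1.35.

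Fos, the founding member of the family and the partner of Jun in the best-studied AP-1 dimer, lies on chromosome 12 at 85473890 to 85477273. Its levels were 756, 1043 and 1117 TPM ipsilaterally in KO mice 295, 298 and 300, against 1227, 1262 and 1034 TPM contralaterally. In WT mice 296, 297 and 474 they were 1888, 1556 and 1383 TPM ipsilaterally, against 2001, 1879 and 1159 TPM contralaterally. The sides overlapped in both genotypes, and mice of the same genotype moved in different directions, with Fos higher ipsilaterally in 2 of 6 mice. The averaged log2 fold change was -0.09, with a 95% interval of -0.47 to 0.29, so that a side difference above 1.22-fold or below 0.723-fold lies outside that interval.

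Fosb, a Fos protein known from stimulated neurons, stood at 98.5, 157 and 213 TPM ipsilaterally in KO mice 295, 298 and 300, against 253, 248 and 213 TPM contralaterally. Among WT mice 296, 297 and 474 it stood at 338, 239.5 and 198 TPM ipsilaterally, against 431, 367 and 192 TPM contralaterally. The WT sides overlapped, and the KO sides met at 213 TPM in mouse 300. It was lower ipsilaterally in 5 of 6 mice on normalised CPM, mouse 300 being the exception, and the averaged difference of -0.39 ± 0.25 did not pass (adjusted p = 0.245, edgeR; 95% interval -0.93 to 0.15).

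The makeup of the Fos family differed between the sides, while its total overlapped. The 4 Fos genes summed to 976 to 1486 TPM in KO ipsilateral against 1272 to 1524 TPM in KO contralateral libraries, and to 1698 to 2359 TPM in WT ipsilateral against 1361 to 2469 TPM in WT contralateral libraries. Fosl1 and Fosl2 together were 12.4, 4.66 and 10.5% of that sum ipsilaterally in KO mice 295, 298 and 300, against 1.01, 0.858 and 1.93% contralaterally. In WT mice 296, 297 and 474 they were 5.66, 4.76 and 6.85% ipsilaterally, against 1.54, 0.885 and 0.743% contralaterally. Every ipsilateral share lay above every contralateral one. The Fosb share ran the other way in each mouse, with 10.1 to 14.4% ipsilaterally against 16.3 to 16.9% contralaterally in KO mice, and 11.7 to 14.3% against 14.1 to 17.4% in WT mice. A share also falls when other parts of the sum rise. Fosb itself was at 213 TPM on both sides in mouse 300, at 198 against 192 TPM in mouse 474, and lower ipsilaterally in the other mice. Fos itself remained the main Fos transcript, at 75.1 to 82.8% in KO ipsilateral and 80.0 to 82.5% in WT ipsilateral libraries. These shares are descriptions of RNA, and no protein or dimer was measured.

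**Figure D2:**
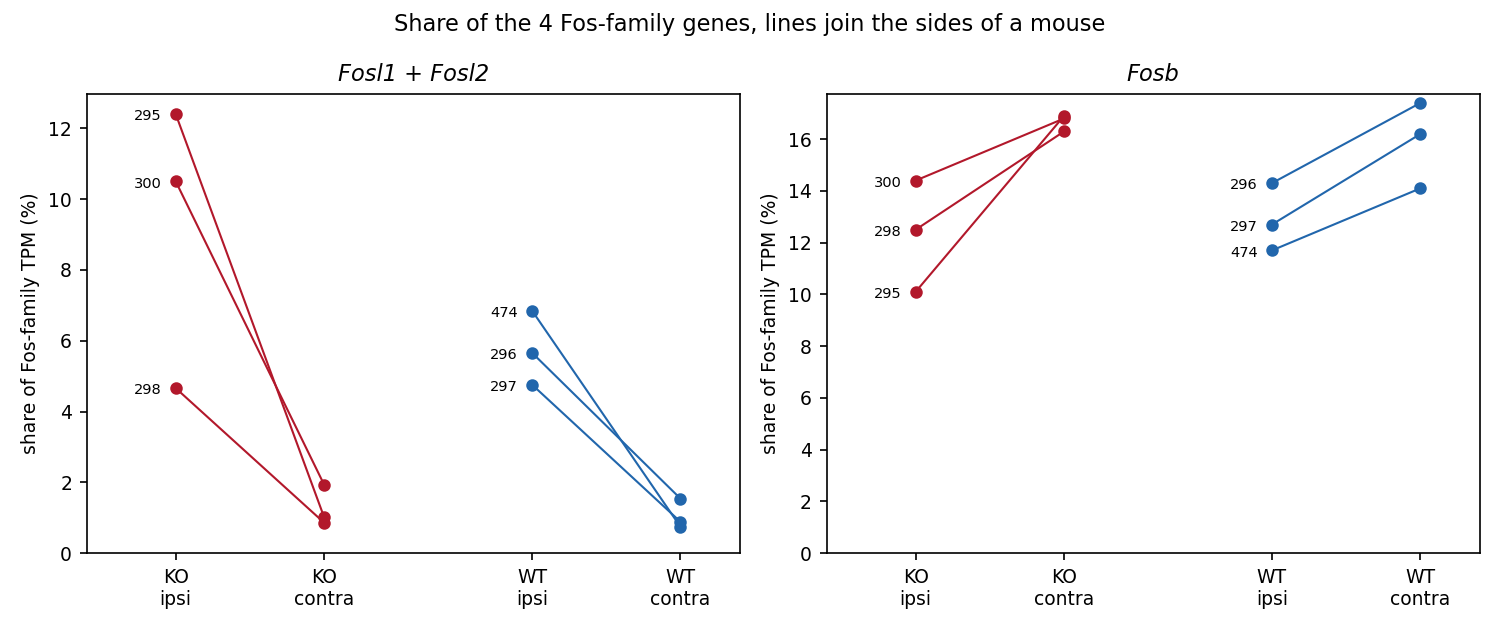
Share of the summed TPM of Fos, Fosb, Fosl1 and Fosl2 that came from Fosl1 and Fosl2 (left) and from Fosb (right), in percent, with axes from 0. Each point is a library, and lines join the sides of a mouse, numbered at its ipsilateral point. The Fosl1 and Fosl2 share is 4.66 to 12.4% ipsilaterally and 0.743 to 1.93% contralaterally, and the Fosb share is lower ipsilaterally in all 6 mice.

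The Jun genes, the main partners of the Fos proteins, did not pass the test between the sides. Jun stood at 498, 537 and 497 TPM ipsilaterally in KO mice 295, 298 and 300, against 669, 635 and 513 TPM contralaterally. For WT mice 296, 297 and 474 it stood at 571, 549.7 and 533 TPM ipsilaterally, against 674, 649.7 and 444 TPM contralaterally. Jun was higher ipsilaterally in 2 of 6 mice on normalised CPM, and its averaged log2 fold change was -0.10 with a 95% interval of -0.37 to 0.16. Junb, a Jun protein that often restrains Jun, stood at 460.3 to 543 TPM in KO ipsilateral against 417 to 513 TPM in KO contralateral libraries, and at 459.5 to 695 TPM in WT ipsilateral against 342 to 714 TPM in WT contralateral libraries. Its averaged difference was 0.17 (95% interval -0.22 to 0.57). Prdx2, which overlaps exons of Junb on the opposite strand, held 1308 to 2114 counts ipsilaterally and 1567 to 2341 contralaterally, so with the strand of counting unknown Junb values are uncertain. Jund, the member known for steady expression in resting cells, stood at 434 to 524 TPM against 494 to 545 TPM in KO mice and at 423 to 710.2 TPM against 463 to 841 TPM in WT mice, with an averaged difference of -0.12 (95% interval -0.50 to 0.25). For all 3 Jun genes the sides overlapped in both genotypes.

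Atf3 stood at 352, 288 and 269 TPM ipsilaterally in KO mice 295, 298 and 300, against 299, 338 and 246 TPM contralaterally. In WT mice 296, 297 and 474 it stood at 282, 404 and 397 TPM ipsilaterally, against 282, 363 and 207 TPM contralaterally. The sides overlapped in both genotypes, and Atf3 was higher ipsilaterally in 4 of 6 mice on normalised CPM (averaged difference 0.26 ± 0.14, adjusted p = 0.172, edgeR). Egr1 stood at 205 to 351 TPM in KO ipsilateral against 324 to 379 TPM in KO contralateral libraries, and at 336 to 563 TPM in WT ipsilateral against 242 to 519 TPM in WT contralateral libraries. Its averaged difference was -0.02 (95% interval -0.48 to 0.44). A difference that misses the threshold does not show that the sides were equal, and the intervals give the sizes that the data allow.

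Maff, on chromosome 15 at 79346621 to 79359076, encodes MafF, which pairs with other zipper proteins such as Nrf2 and Bach1. It stood at 43.5, 26.8 and 92.9 TPM ipsilaterally in KO mice 295, 298 and 300, against 15.1, 15.2 and 24.9 TPM contralaterally. Among WT mice 296, 297 and 474 it stood at 98.3, 59.8 and 64.6 TPM ipsilaterally, against 96.0, 26.1 and 15.7 TPM contralaterally. The sides did not overlap in KO mice, which on normalised CPM held in either direction for 38.8% of genes tested. In WT mice the sides overlapped, through mouse 296, in which both were at nearly one level. Maff was 1.88-fold to 4.77-fold higher ipsilaterally in 5 of 6 mice, and 0.989-fold in mouse 296, on normalised CPM.

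The averaged Maff difference was 1.22 ± 0.45 log2 units with an adjusted p of 0.0547 (edgeR), just above the threshold. It was called in 9 of 28 alternative settings, so most did not call it. Under the block by mouse it was 1.31 (adjusted p = 0.00652), and without mouse 296 it was 1.68 (adjusted p = 0.00605), so whether it is called depends on these settings. It was also called by DESeq2 (adjusted p = 0.0429), by limma-voom (0.0434), with a filter of at least 1 CPM in all libraries of a group (0.0496), on log2(TPM + 1) and log2(TPM + 0.1) by limma-trend (0.0409 and 0.0414) and without the ipsilateral library of mouse 298 (0.0289). Within KO mice it was 1.80 ± 0.65 (adjusted p = 0.112), 1.61 with the block (adjusted p = 0.0317) and 1.81 without mouse 296 (adjusted p = 0.0346). Within WT mice it was 0.64 ± 0.62 (adjusted p = 0.497) and 1.55 without mouse 296 (adjusted p = 0.0752). Of 29 alternative settings, 3 called Maff in KO and 1 in WT mice. With only the contralateral library of mouse 296 left out, Maff was called in WT mice (1.8, adjusted p = 0.0341) and in the average (1.8, adjusted p = 0.00325). With only its ipsilateral library left out, neither was called (WT 0.41, adjusted p = 0.72, and average 1.11, adjusted p = 0.0951). In TPM, the contralateral library of mouse 296 also held the highest contralateral value of every other member but Atf3. Its summed neutrophil and neuron markers were the highest contralateral ones too, and the part of those cells in the result was not tested.

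**Figure D3:**
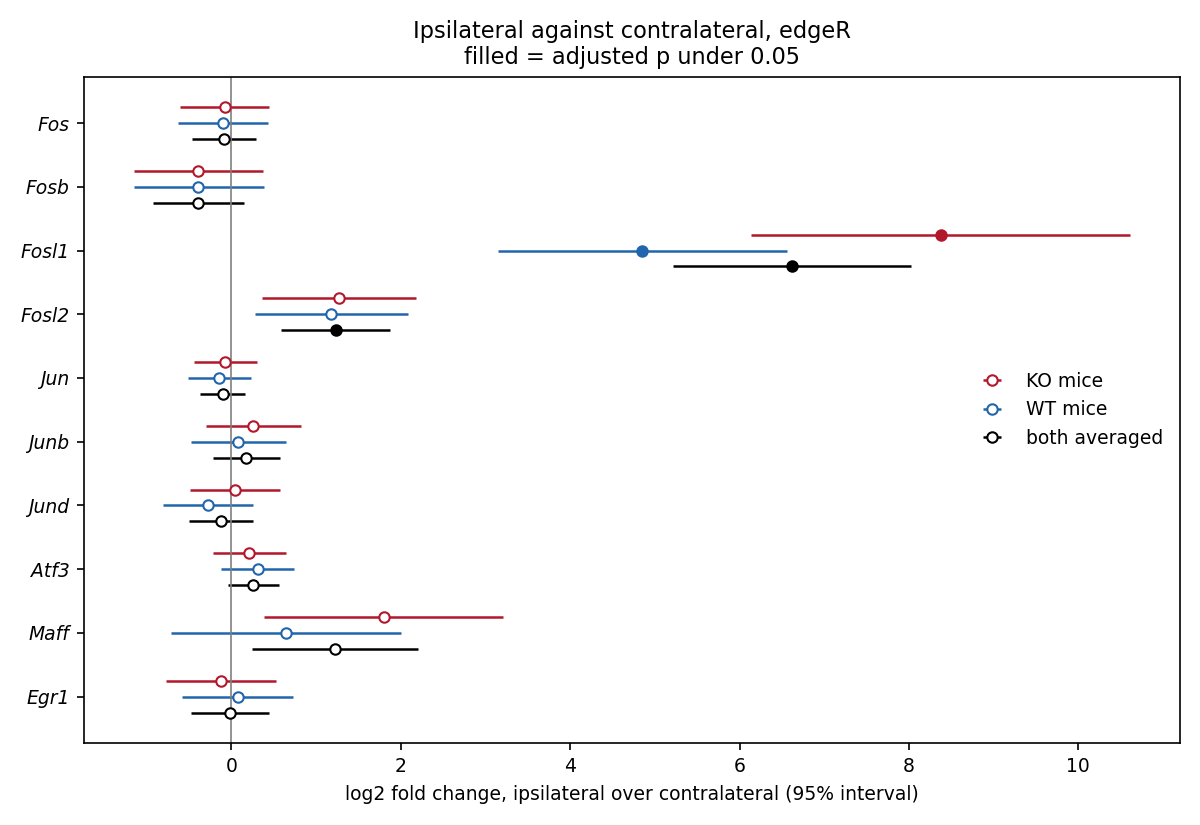
Log2 fold change of each gene, ipsilateral over contralateral, with its 95% interval, in KO mice, in WT mice and averaged. Filled points passed an adjusted p of 0.05 in edgeR's test. Fosl1 is filled in all 3, Fosl2 only in the average, and the points of the other 8 genes are all open. The averaged Maff interval is 0.24 to 2.20.

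Whether the genotype label changed the members was asked on each side. KO and WT mice did not differ in any of the 10 members by edgeR's test on either side, where 6.31% of all genes changed ipsilaterally and 1.50% contralaterally. At an unadjusted p under 0.05, 1 member differed ipsilaterally (Fos) and 3 contralaterally (Fos, Fosl1 and Maff), and DESeq2 and limma-voom also called 0 members on either side. The share of all genes under that unadjusted p was not taken, so 1 and 3 of 10 have no background. The log2 fold change was below 0 for 9 of 10 members ipsilaterally, as for 47.9% of all genes, and for 10 of 10 contralaterally, as for 50.2% of all genes. The median over the members was -0.22 ipsilaterally (0.02 over all genes) and -0.41 contralaterally (0.00 over all genes).

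Fos was the member with the smallest p on both sides. Ipsilaterally it averaged 972 ± 190.5 TPM in KO and 1609 ± 257 TPM in WT libraries (SD, n = 3 each). On normalised CPM, the scale of the test, the genotypes overlapped ipsilaterally, since KO mouse 300 had 967 and WT mouse 474 had 943. The log2 fold change of KO over WT was -0.62 ± 0.25 ipsilaterally (adjusted p = 0.168, edgeR) and -0.64 ± 0.25 contralaterally (adjusted p = 0.268). Without mouse 296 these were -0.48 and -0.47. The oligodendrocyte markers were lower and the astrocyte markers higher in KO than in WT libraries on both sides, by the summed levels given above. Summed neuron markers were lower in KO too, at 119 to 151 TPM against 259.7 to 518 TPM in WT libraries ipsilaterally. Contralaterally they summed to 66.3 to 68.4 against 183 to 448 TPM. By gene, 1 of 8 fell on each side and 7 did not pass. Their median log2 fold change was 0.41 ipsilaterally and -0.59 contralaterally, so the sums do not describe each gene. The part of these cells in the Fos difference was not tested.

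Contralateral Fosl1 (-3.17 ± 1.30, adjusted p = 0.293) and Maff (-1.44 ± 0.65, adjusted p = 0.339) were lower in KO than in WT mice, without passing. Without mouse 296 they were -0.96 and -0.28. In the interaction, which asks whether the side difference depends on the genotype label, 0 members passed in edgeR, DESeq2 or limma-voom. In edgeR 0.00% of all genes passed. Fosl1, 1 member, had an unadjusted p under 0.05, for which no share of all genes was taken.

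Genes around AP-1 were read in lists, each in the averaged ipsilateral over contralateral contrast, in which 17.1% of all genes rose and 16.1% fell. Of the 23 tested genes whose control by AP-1 has been described, 22 rose and 0 fell, with a median log2 fold change of 2.57. Ptgs2, the inducible prostaglandin synthase, rose by 3.06 ± 0.27 (adjusted p = 8.4e-05, edgeR) and stood at 51.3 to 61.9 TPM in KO ipsilateral against 4.92 to 10.2 TPM in KO contralateral libraries. In WT mice it stood at 59.0 to 109 TPM against 5.16 to 13.5 TPM. The urokinase gene Plau rose by 2.19 ± 0.22 and the cytokine gene Lif by 2.70 ± 0.26. Penk, the enkephalin precursor, was the 1 gene that did not pass (-0.48 ± 0.57). These genes answer to many other factors too, and AP-1 binding was not measured.

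Other zipper proteins that can pair with AP-1 members rose in 10 of 23 tested genes and fell in 0, with a median of 0.38. The number called was 5 without mouse 295, without mouse 297 or without either library of mouse 297, and 6 without mouse 300, without the ipsilateral library of mouse 295 or without the contralateral one of mouse 298 or 300. With the mouse as a block, 14 were called. No share of all genes was taken for these other fits, here or for the lists below, so their counts have no background. Bach1, a partner of small Maf proteins, rose by 0.83 ± 0.12, and the stress factors Atf4, Atf5 and Ddit3 rose by 0.84 ± 0.15, 1.15 ± 0.21 and 1.05 ± 0.20. Of 24 other immediate early genes tested, 9 rose and 0 fell, with a median of 0.45, and 15 were called with the mouse as a block. Gadd45b, a stress-induced activator of p38 signalling, rose by 2.56 ± 0.33 and stood at 156 to 406 TPM in KO ipsilateral against 52.0 to 62.0 TPM in KO contralateral libraries, and at 429 to 534 TPM against 39.6 to 139 TPM in WT mice. Myc rose by 1.52 ± 0.27, Homer1 by 0.74 ± 0.10 and Klf10 by 0.59 ± 0.14. Ier2 (-0.05 ± 0.17) and Nr4a1 (0.02 ± 0.17), both classical immediate early genes, did not pass, as Fos and Egr1 did not; this pair was chosen after the values were seen.

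Of 25 kinase and serum response factor genes upstream of AP-1, 8 rose and 2 fell, with a median of 0.19, and the number called was 6 without mouse 295 or 297 and 5 without mouse 300. Map3k8, a kinase that activates the ERK pathway, rose by 1.06 ± 0.17 and Mapkapk2, a kinase downstream of p38, by 0.72 ± 0.13. Mapk14, p38 alpha itself, rose by 0.46 ± 0.10, whereas Map2k6, an activator of p38, fell by 0.90 ± 0.18 (log2 units, SE). Of 15 genes that shut MAP kinases off, 10 rose and 1 fell, with a median of 0.63, and 7 were called without mouse 300. The nuclear phosphatases Dusp2 and Dusp5 rose by 2.59 ± 0.27 and 2.29 ± 0.43, Dusp7 by 0.90 ± 0.14 and Spry1 by 0.77 ± 0.17. Dusp1 (-0.21 ± 0.18), also named after its value was seen, did not pass.

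**Figure D4:**
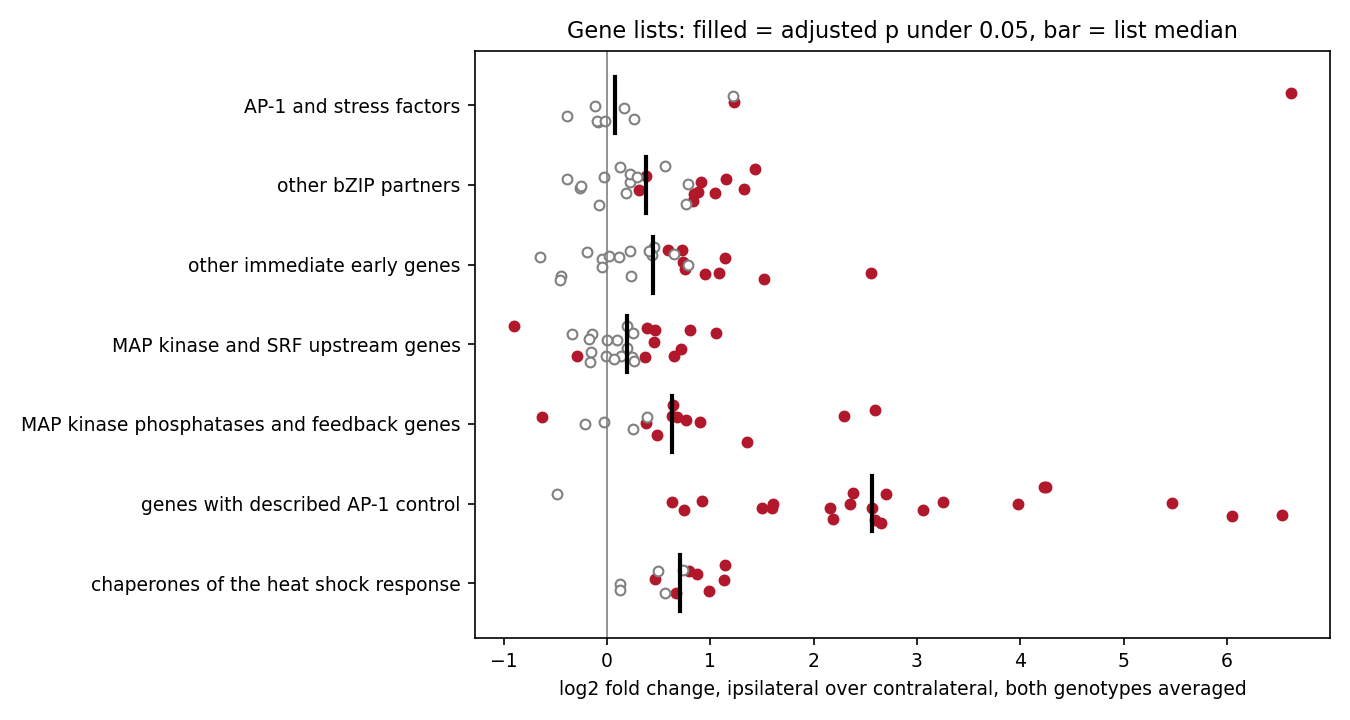
Log2 fold change of each tested gene of the lists, ipsilateral over contralateral with the genotypes averaged, with filled points for genes past an adjusted p of 0.05. The genes with described AP-1 control lie highest, with a median of 2.57, against 0.07 for the 10 members and -0.03 for all genes.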

How the data were processed

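The authors deposited a table per library with whole-number expression values, taken here as counts of reads per gene, with TPM and with RPKM, a constant multiple of TPM within a library. RPKM was not used further. The submitters' processing notes name mm10 as the genome build. The aligner, the counter and its strand setting were not given in the sources used here. Gene positions are those of the GENCODE annotation of mm10, which held 48349 of the identifiers. The deposited counts were 0.61, 0.71, 0.82 and 0.84 of the reads implied by TPM for Fosb, Fosl2, Maff and Fosl1, and 1.0 for the other members, so levels are given as TPM.

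Counts were tested in R 4.3.3 with edgeR 4.0.16: filterByExpr (minimum count 10), TMM scaling, a robust quasi-likelihood model with 1 term per group over 12 libraries (8 residual degrees of freedom), and Benjamini-Hochberg adjustment over 15571 genes, called at 0.05. Standard errors are approximate (the log2 fold change over the root of F), and intervals are at 95%. Normalised CPM uses TMM library sizes. The ratio of Fosl1 counts has an exact interval for counting error only. The procedure was tested on simulated data.

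Libraries were grouped by their titles, and the mouse number pairs the sides of an animal. After removal of group means the sides of mice 295, 298, 300, 296, 297 and 474 correlated at 0.294, 0.346, 0.155, 0.628, 0.016 and 0.357. The mouse as a block was an alternative, as were DESeq2 1.42.0, limma-voom (limma 3.58.1), RLE and upper-quartile scaling, other filters, no robust estimation, only the groups compared, limma-trend on log2(TPM + 1) and on log2(TPM + 0.1) (TPM of 1 or more in 3 libraries), and leaving out each library or mouse. All 10 members are named. Of each list up to 4 genes with the smallest adjusted p among those that passed are named, and for each member the 2 genes most correlated with it. A gene that this rule picked is not reported here. The members and the lists were chosen with earlier results of these data known.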

Additional observations from a re-analysis of the deposited data

How the results depend on the processing

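The call of Fosl1 in WT mice and in the average held under every alternative run, and that in KO mice under all but leaving out mouse 295. The number of members called was 2 in WT mice, in place of 1, under DESeq2, limma-voom, the replicate block and both TPM fits, and in KO mice 2 under DESeq2 and 3 with the replicate block. The block, which uses the pairing of sides within a mouse, added 4 calls (Fosl2 in each genotype, Maff in KO mice and in the average) and removed 0. Leaving out 1 library or mouse gave 1 to 3 calls in WT, 0 to 3 in KO and 2 to 3 in the average, and 0 in the genotype contrasts and the interaction. Shares of all genes were taken in the main fit only, so these counts have no background. Sign changes occurred only in differences that were not called. Under limma-trend on either TPM scale they were -0.15 for Jund in KO mice, 0.055 for Jun and 0.079 for Atf3 in KO over WT contralaterally, and, in the interaction, -0.25 for Fos, -0.28 (log2(TPM + 1)) and -0.29 (log2(TPM + 0.1)) for Fosl2, -0.16 for Jun and -0.086 for Junb. The interaction of Fos was -0.014 with upper-quartile scaling, -0.0012 without the filter, -0.031 in limma-voom and -0.035 with the block. That of Fosl2 was -0.10 in limma-voom and -0.061 with the block, that of Fosb 0.0011 with the strict filter, and the averaged Egr1 difference 0.00058 without the filter. Leaving out 1 library or mouse gave ranges that crossed 0 in WT mice for Fos (-0.25 to 0.059), Junb (-0.11 to 0.34) and Egr1 (-0.18 to 0.37), and in KO mice for Fos (-0.41 to 0.15), Jun (-0.27 to 0.077), Jund (-0.21 to 0.17) and Egr1 (-0.36 to 0.16). For KO over WT they did so ipsilaterally for Fosl1 (-0.15 to 0.75), Jun (-0.11 to 0.065), Jund (-0.36 to 0.09) and Maff (-1.11 to 0.092), and contralaterally for Fosl2 (-0.68 to 0.15), Jun (-0.23 to 0.057), Atf3 (-0.22 to 0.11) and Egr1 (-0.46 to 0.065). In the interaction the ranges were -0.34 to 0.25 for Fos, -0.56 to 0.33 for Fosb, -0.42 to 0.41 for Fosl2, -0.17 to 0.21 for Jun, -0.079 to 0.34 for Junb, -0.28 to 0.10 for Atf3, -0.0045 to 1.48 for Maff and -0.49 to 0.079 for Egr1, and in the average -0.24 to 0.025 for Fos and -0.15 to 0.12 for Egr1. The cause of these changes was not tested. With 3 libraries per group the intervals of Fosl1 and Maff span more than 2 log2 units within a genotype.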

Other observations

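Of 12 chaperones of the heat shock response, another stress programme, 7 rose and 0 fell ipsilaterally with the genotypes averaged (edgeR), with a median log2 fold change of 0.71, where 17.1% of all genes rose. This count varied with the mice and the model used. Without mouse 295, 1 was called, without mouse 297 or without mouse 300, 2 were, and with the mouse as a block 9 were. No share of all genes was taken for these other fits. The mitochondrial chaperonins Hspd1 and Hspe1 rose by 1.13 ± 0.20 and 0.99 ± 0.26, and the cytosolic Hspa8 and its partner Dnaja1 by 0.87 ± 0.24 and 0.67 ± 0.17 (log2 units, SE). Without mouse 295, 297 or 300, Hspe1 had adjusted p-values of 0.0507, 0.0678 and 0.0703 and Hspa8 of 0.0699, 0.08 and 0.0679, and without mouse 295 or 297 Dnaja1 had 0.055 and 0.0529. The differences themselves stayed close, at 1.03, 0.93 and 0.88 for Hspe1 and 0.87, 0.81 and 0.83 for Hspa8.

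The genes whose log2 CPM followed each member most closely over the 12 libraries are given as a description, since all points share group differences and library scaling. Fosl1 ran closest to Tnfrsf12a and Clcf1 (Pearson r = 0.99 each), Fosl2 to Tagln2 (0.99) and Cd200 (0.97), and Maff to Stc1 and Tmem252 (0.98 each). Fos ran closest to Dusp1 (0.95) and Rhou (0.94), Fosb to Map2k7 (0.96) and Rhou (0.9), and Egr1 to Ier2 (0.92) and Parn (0.9). For Jun the closest were Gtpbp10 (0.87) and Ier2 (0.83), for Junb Parvb (0.95) and Sik1 (0.91), for Jund Map1lc3b (0.95) and Map2k7 (0.94), and for Atf3 Trmt10a (0.87) and Tsr2 (0.84). Among the members, Fos followed Fosb (0.93) and Egr1 (0.85) but not Fosl1 (0.04).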
